A study of Mus musculus with 12 samples.

Results

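Nrn1, Stac2 and Rasgef1b are 3 of the 24421 genes counted in the dorsal raphe (DR) of control and STAT3 KO mice. They were picked from the genotype comparison itself: in each of them every control animal had a higher level than every KO animal. The difference between genotypes was therefore used to choose them and is given as a description, with no test. Of all genes counted, 15453 passed the filter on low counts, all 3 genes among them.

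RNA was sequenced from 12 mice of C57BL/6 x 129 background, with 1 library per animal. Controls were 4 littermates (2 female, 2 male) with the genotype Sert Cre/+; Stat3 fl/+, and the 8 STAT3 KO animals (4 female, 4 male) were Sert Cre/+; Stat3 fl/fl. All animals were adult and single-housed, all carried the Cre recombinase, and the controls also carried 1 floxed allele of Stat3, the gene of a transcription factor activated by cytokine receptors. Cre is driven by the gene of the serotonin transporter, so the deletion concerns cells that express this transporter, whereas the tissue was a dissected piece below the cerebral aqueduct with all its cell types. In such bulk tissue fewer cells of a type and less RNA per cell cannot be told apart.

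Nrn1 encodes neuritin, a small protein that is tethered to the outer neuronal membrane by a lipid (GPI) anchor, is induced by neuronal activity and promotes the growth of neurites and the maturation of synapses. Stac2 encodes an adaptor protein that binds L-type calcium channels in neurons and slows their calcium-dependent inactivation. Rasgef1b encodes a guanine nucleotide exchange factor, a protein that loads small GTPases of the Ras superfamily with GTP, and is known to act on RAP2. The 3 proteins act at different places in a neuron and are not members of 1 pathway.

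All positions are on GRCm38 (mm10). Nrn1 (ENSMUSG00000039114) lies on the minus strand of chromosome 13, at chr13:36725361-36735131, and its reference transcript has 3 exons and 1619 bases. Stac2 (ENSMUSG00000017400) lies on the minus strand of chromosome 11, at chr11:98036623-98053462, with 11 exons and 3050 bases. The annotated span of Rasgef1b (ENSMUSG00000089809) on the minus strand of chromosome 5 is much longer, chr5:99217426-99729065, but the transcript used here for length, with 14 exons and 2990 bases, covers only chr5:99217426-99252927. Nrn1 shares 501 exon bases with Fars2, a mitochondrial tRNA synthetase gene on the opposite strand. Since the use of strand in counting is not given in the sources used here, reads in these bases cannot be assigned to either gene with certainty.

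The 250 bases before the start of that Rasgef1b transcript, at chr5:99252928-99253177 on the minus strand, are shown because a transcription factor was deleted in this study. The sequence is that of RefSeq on GRCm38.p6, printed 5′ to 3′ with a match to the EGR motif in capitals.
Rasgef1b: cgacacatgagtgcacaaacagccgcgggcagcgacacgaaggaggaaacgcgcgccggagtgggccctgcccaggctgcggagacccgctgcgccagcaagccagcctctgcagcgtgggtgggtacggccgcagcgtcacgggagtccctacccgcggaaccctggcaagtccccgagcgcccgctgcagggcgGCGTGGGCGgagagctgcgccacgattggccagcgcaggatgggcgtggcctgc
A set of 3 known motifs were searched on both strands. The STAT motif TTCNNNGAA and the cyclic AMP response element TGACGTCA had 0 matches in these bases. The EGR motif GCGTGGGCG, bound by zinc finger factors of the immediate early response, had 1 match, which begins 54 bases before the start site. Over 32851 promoter windows of the same length, 7.02% held the STAT motif, 1.55% the response element and 0.536% the EGR motif. The window was rich in G and C (72.4%). A match is a string of letters and not a measured binding site, and no binding was measured here.

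Counting depth was 24379588 to 29645210 counts per library. Levels are given in CPM, gene counts scaled to library size with TMM factors, and at this depth 3 counts correspond to 0.101 to 0.124 CPM. All 3 genes were counted far above this floor, with 2577 to 3512 reads for Nrn1, 1097 to 2085 for Stac2 and 888 to 1097 for Rasgef1b. Tph2, the gene of the serotonin-synthesising enzyme, was read at 539.9 to 878.9 CPM and the serotonin transporter gene Slc6a4 at 150.6 to 404.6 CPM, so each piece held RNA of serotonergic neurons. Stat3 itself was read at 66.6 ± 1.49 CPM (SD, n = 4) among the control animals and 66.3 ± 2.72 CPM (SD, n = 8) in KO, a log2 difference of -0.0077 ± 0.039 (SE) with an adjusted p of 0.992 in edgeR's quasi-likelihood test. Counts per gene do not resolve the floxed exons, and the level of Stat3 in the whole piece did not separate the genotype labels. The authors measured the deleted exons by qRT-PCR in DR tissue and report lower expression in KO. They also report less STAT3 protein signal within serotonergic neurons.

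Nrn1 was read at 116.4, 117.3, 131.2 and 115.4 CPM in control animals 13, 4, 3 and 11. In the 8 KO animals its lowest level was 92.99 CPM, the median 99.64 CPM and the highest 110.3 CPM. Control 3 stood above the other controls, and the closest animals of the 2 genotypes, control 11 and KO 8, were 5.08 CPM apart. The means were 120.1 ± 7.45 CPM (SD, n = 4) among the control animals and 100.5 ± 5.69 CPM (SD, n = 8) in KO, a log2 fold change of -0.26 ± 0.049 (SE). Relative to the controls this is a change of -16.3%.

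Stac2 was read at 85.93, 68.09, 71.9 and 69.01 CPM in control animals 13, 4, 3 and 11. Its KO levels ran from 39.46 CPM over a median of 52.3 CPM to 64.51 CPM. Control 13 was the highest animal, KO 8 the lowest and KO 7 the highest of its genotype, 3.58 CPM under control 4. With means of 73.73 ± 8.29 CPM (SD, n = 4) and 52.49 ± 6.91 CPM (SD, n = 8), the log2 fold change was -0.49 ± 0.094 (SE), a change of -28.8%. Stac2 showed the largest difference of the 3 genes and also the widest spread within genotype, with an SD of 0.185 on the log2 scale against 0.0829 for Nrn1 and 0.0668 for Rasgef1b.

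Rasgef1b was read at 41.99, 38.72, 40.97 and 37.87 CPM in control animals 13, 4, 3 and 11, the narrowest range of the 3 genes. The KO animals lay between 31.57 and 36.2 CPM, with a median of 32.71 CPM. KO 15 was the highest of its genotype and lay 1.67 CPM below control 11. The means were 39.89 ± 1.92 CPM (SD, n = 4) and 33.08 ± 1.54 CPM (SD, n = 8), with a log2 fold change of -0.27 ± 0.046 (SE), a change of -17.0%.

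**Figure D1:**
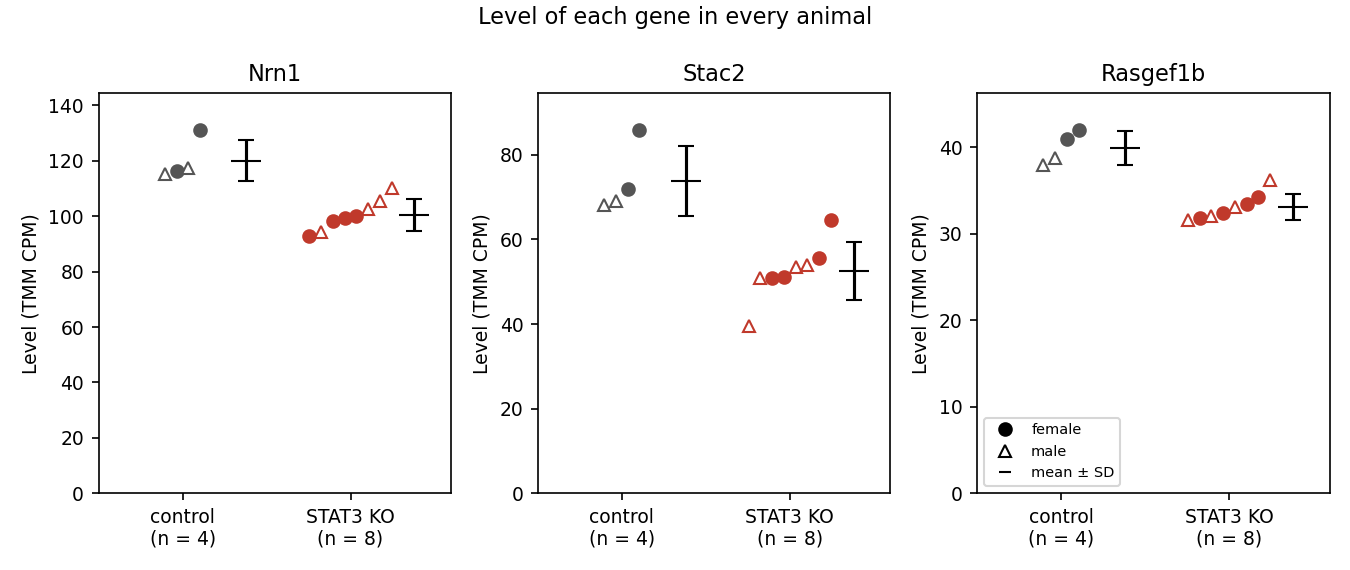
Level of Nrn1, Stac2 and Rasgef1b (TMM CPM, vertical axis from 0) in each of 4 control and 8 STAT3 KO animals; filled circles are females, open triangles males, and the bar beside each genotype is the mean ± SD. In each panel all KO animals lie below all controls, with the closest animals 5.08, 3.58 and 1.67 CPM apart.

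The spread between animals was larger than counting noise alone gives. For Nrn1 the coefficient of variation was 6.21% in controls and 5.66% in KO, where counting noise gives 1.79% and 1.87%. Stac2 varied by 11.2% and 13.2% against 2.29% and 2.61%. For Rasgef1b the values were 4.81% and 4.66% against 3.10% and 3.26%, so a larger share of its spread was at the level of counting noise.

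Per kilobase of the transcripts given above, Nrn1 was the most abundant, at 74.2 ± 4.60 CPM per kb in controls (SD, n = 4) and 62.1 ± 3.51 in KO (SD, n = 8). Stac2 followed at 24.2 ± 2.72 CPM per kb in controls and 17.2 ± 2.26 in KO. Rasgef1b was lowest at 13.3 ± 0.642 and 11.1 ± 0.516 CPM per kb, and the size of these levels depends on the length used. With the union of all annotated exons the control means were 53.4, 23.5 and 2.89 CPM per kb, in the same order.

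Of the 15453 genes tested, 37 were lower in every KO animal than in every control (0.239%) and 32 were higher (0.207%). Leaving out 1 library gave 44 to 296 such genes, with 296 when control 4 was left out. A rise follows from the design, since fewer animals leave fewer values to overlap. Ranked by the gap between the lowest control and the highest KO animal on the log2 scale, Stac2 was 5 of 37 (0.078), Rasgef1b 6 (0.065) and Nrn1 7 (0.065). The widest gaps belonged to C1qtnf6 (0.16), the thyrotropin-releasing hormone receptor gene Trhr2 (0.12), 6530402F18Rik (0.12) and Dio2 (0.11), the gene of the deiodinase that activates thyroid hormone in glia. C1qtnf6 and Trhr2 had low counts, 52 to 58 and 57 to 61 counts in the controls, whereas Dio2 was read at 36.3 ± 4.72 CPM in controls (SD, n = 4) and 24.6 ± 5.19 CPM in KO (SD, n = 8). Just inside the limit stood Fkbp1b, with a lowest control of 25.286 CPM and a highest KO animal of 25.278 CPM, and just outside it Necap1 with 290.55 and 290.64 CPM. Since every member was picked for this absence of overlap, nothing is read from its rank.

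**Figure D2:**
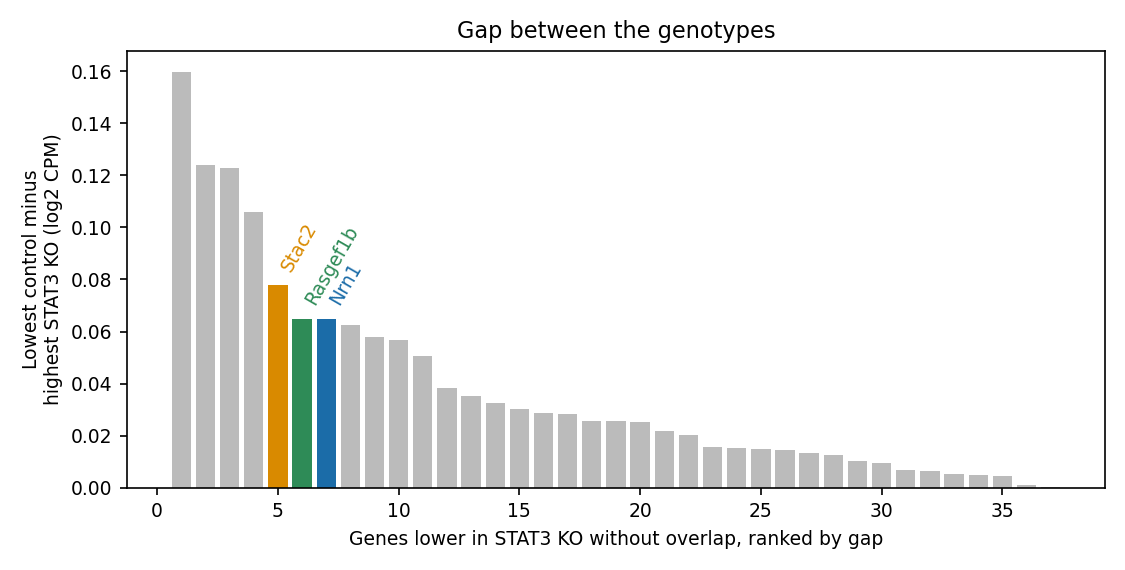
Gap between the lowest control and the highest STAT3 KO animal (log2 CPM, vertical axis) for the 37 genes lower in KO without overlap, ranked from the widest gap (horizontal axis: rank). Stac2, Rasgef1b and Nrn1, in colour, take ranks 5 to 7.

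Across all genes, edgeR's quasi-likelihood test called 0 genes between genotypes at an adjusted p of 0.05, with a lowest adjusted p of 0.387. At an unadjusted p of 0.05, 1184 genes passed (7.66%), 626 of them lower in KO (4.05%), and DESeq2 called 6 genes (0.03%). The median log2 fold change of all genes was -0.001 and 50.6% of them were lower in KO. Libraries of the 2 genotypes also differed in their TMM factors, at 0.985 to 0.995 in controls and 0.999 to 1.013 in KO, and in the genes detected, at 17779 to 17863 and 17915 to 18047, with no overlap in either. Depth was lower in most controls, at 24379588 to 27849492 counts against 27324999 to 29645210 in KO. The part of depth in the genes detected was not tested. Without TMM scaling the 3 genes still did not overlap between genotypes, with lowest controls of 114.2, 67.25 and 37.49 CPM and highest KO animals of 110.5, 64.78 and 36.19 CPM for Nrn1, Stac2 and Rasgef1b. On that scale their log2 fold changes were -0.23, -0.47 and -0.25, and 20 genes in place of 37 showed no overlap.

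Leaving out 1 library cannot turn the sign of genes picked for no overlap, but it shows how far a single animal moves the size. For Nrn1 the log2 fold change ran from -0.28 to -0.21, the latter without control 3. Stac2 ran from -0.54 to -0.40, the latter without control 13, and Rasgef1b from -0.29 to -0.24.

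Fars2, which overlaps Nrn1, was read at 13.6 ± 0.828 CPM in controls (SD, n = 4) and 14.1 ± 0.849 CPM in KO (SD, n = 8), with a log2 difference of 0.05 ± 0.063 (SE) and an adjusted p of 0.919 in the quasi-likelihood test. Its level lay far below that of Nrn1 and its r with Nrn1 within genotype was 0.15.

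Sex was not used to choose the genes and was tested with genotype in the fit. The test called 13 genes over all (0.0841%), none of the 3 among them, with 1112 at an unadjusted p of 0.05 (7.2%), and DESeq2 called 24 (0.139%). Nrn1 differed between males and females by 0.02 ± 0.048 (log2, SE; adjusted p = 0.934) and Rasgef1b by -0.03 ± 0.046 (adjusted p = 0.911). For Stac2 the male level was lower by a log2 difference of -0.18 ± 0.080 (SE), with an unadjusted p of 0.0411 and an adjusted p of 0.677. In controls both females had more Stac2 (85.93 and 71.9 CPM) than both males (68.09 and 69.01 CPM), while in KO the female range of 51.0 to 64.51 CPM overlapped the male range of 39.46 to 54.04 CPM. Rasgef1b also separated the sexes in controls, at 41.99 and 40.97 CPM in females and 38.72 and 37.87 CPM in males, and overlapped in KO, whereas Nrn1 overlapped in both genotypes. Controls held only 2 animals of each sex, and the share of all genes that separate in this way was not counted. Nothing is read from these separations.

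Since each gene was picked for controls above all KO animals, the sign of its difference within each sex was fixed, and the sizes are a description. In females the log2 fold change was -0.34 ± 0.065 for Nrn1, -0.51 ± 0.12 for Stac2 and -0.33 ± 0.067 for Rasgef1b (SE). The corresponding male values were -0.17 ± 0.066, -0.47 ± 0.12 and -0.20 ± 0.067. The test of the difference between the sexes itself gave 0.17 ± 0.093 for Nrn1 (adjusted p = 0.934), 0.04 ± 0.17 for Stac2 (adjusted p = 0.996) and 0.13 ± 0.096 for Rasgef1b (adjusted p = 0.959). It called 0 genes over all, with 848 at an unadjusted p of 0.05 (5.49%), and 2 by DESeq2 (0.00997%).

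Whether the 3 genes followed each other was asked within genotype, on log2 CPM centred on the mean of each genotype over 12 libraries. Nrn1 and Stac2 had a Pearson r of -0.35 (permutation p = 0.29, adjusted over 3 pairs 0.426) and a Spearman rho of 0.10 (p = 0.769, adjusted 0.769). The sign of r rested on KO 8, which had the highest Nrn1 and the lowest Stac2 of its genotype: without this animal r was 0.13, and without it and control 3 it was 0.26. Nrn1 and Rasgef1b had an r of 0.27 (permutation p = 0.426, adjusted 0.426) and a rho of 0.26 (p = 0.436, adjusted 0.654), with an r of 0.48 without the same 2 animals. Stac2 and Rasgef1b had the highest values, an r of 0.53 (permutation p = 0.0922, adjusted 0.277) and a rho of 0.59 (p = 0.0599, adjusted 0.18), and an r of 0.55 without KO 8 and KO 7. None of the 3 pairs passed the test.

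Relatives of each gene were read beside it. In the neuritin family, Nrn1l had means of 1.16 and 1.15 CPM in control and KO animals, and its log2 difference of -0.02 ± 0.21 (SE) had an adjusted p of 0.996. The other STAC genes had low levels, with Stac at 4.62 ± 0.544 CPM in controls (SD, n = 4) and 5.18 ± 0.436 CPM in KO (SD, n = 8) and Stac3 at means of 1.49 and 1.61 CPM. Both had positive differences, 0.16 ± 0.097 for Stac (adjusted p = 0.756) and 0.12 ± 0.19 for Stac3 (adjusted p = 0.937), which did not pass the test. Rasgef1a was more abundant than Rasgef1b in CPM but showed a log2 difference of 0.01 ± 0.061 (adjusted p = 0.992), with 102.6 ± 13.9 CPM in controls (SD, n = 4) and 103.5 ± 3.05 CPM in KO (SD, n = 8). Rasgef1c was read at 7.71 ± 1.81 and 7.10 ± 0.566 CPM, a difference of -0.12 ± 0.12 (adjusted p = 0.874). No gene of these families was called between genotypes.

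A set of 5 lists of genes with related roles were counted without the 3 chosen genes, and 0 genes of any list were called, with lowest adjusted p values of 0.615 to 0.624. Among 20 activity-regulated secreted or surface proteins, 14 were lower, with a median log2 fold change of -0.02. The lowest p values belonged to the enkephalin precursor Penk (0.26 ± 0.10, SE), the secreted synaptic protein gene Lgi1 (-0.11 ± 0.045) and somatostatin, Sst (0.24 ± 0.10), and Bdnf was at -0.01 ± 0.099. Of 32 neuronal surface proteins with a GPI anchor, 22 were lower, with a median of -0.03. The Nogo receptor homologue Rtn4rl2 (-1.18 ± 0.47), the netrin-G gene Ntng2 (-0.33 ± 0.13) and the contactin gene Cntn5 (0.24 ± 0.097) had the lowest p values here. The value of Rtn4rl2 came from control 4, where it was 4.87 CPM, the remaining 3 controls lying between 0.536 and 0.971 CPM, and it was 0.07 ± 0.30 without that animal.

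The calcium channel list held Stac and Stac3, the L-type channel and its subunits, calmodulin, Cabp1, ryanodine receptors, junctophilins and calmodulin-dependent kinase II. Of its 27 genes 15 were lower, with a median of -0.01. Low p values in this list included those of Calm3, a calmodulin gene (-0.07 ± 0.029), and of the channel subunit gene Cacnb4 (-0.15 ± 0.062). The channel pore genes Cacna1c (-0.03 ± 0.064) and Cacna1d (0.06 ± 0.056), to which STAC proteins bind as a complex, were close to 0. Among 24 exchange factors for Ras, Rap and Ral, 14 were lower, with a median of -0.03. Rapgef4, an exchange factor for Rap proteins that is activated by cyclic AMP, was at -0.12 ± 0.043, Rasgrp1 at -0.51 ± 0.20 and the phospholipase gene Plce1 at 0.18 ± 0.083. Rasgrp1 was high in control 4, with 84.5 CPM where the remaining 3 had 36.4 to 38.7 CPM, and its difference was -0.11 ± 0.12 without it. Among 30 Rap and Ras GTPases, their inactivating proteins and RAP2 effectors, 26 were lower, with a median of -0.06. Rap1gap2 (-0.14 ± 0.060), Rap2c (-0.12 ± 0.053) and Sipa1l1 (-0.19 ± 0.088) stood first, and Rap2a was at -0.10 ± 0.051. Sipa1l1 was highest in control 4 (148.8 CPM), and its difference was -0.04 ± 0.064 without that animal.

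Control 4 moved the counts of these lists. Without it 9 of 20, 19 of 32, 13 of 27, 12 of 24 and 23 of 30 genes were lower, in the order given, and the medians became 0.02, -0.01, 0.03, 0.003 and -0.04. The sign of the median thus turned for the activity-regulated, calcium channel and exchange factor lists. The log2 fold changes of Nrn1, Stac2 and Rasgef1b without control 4 were -0.27, -0.52 and -0.28.

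**Figure D3:**
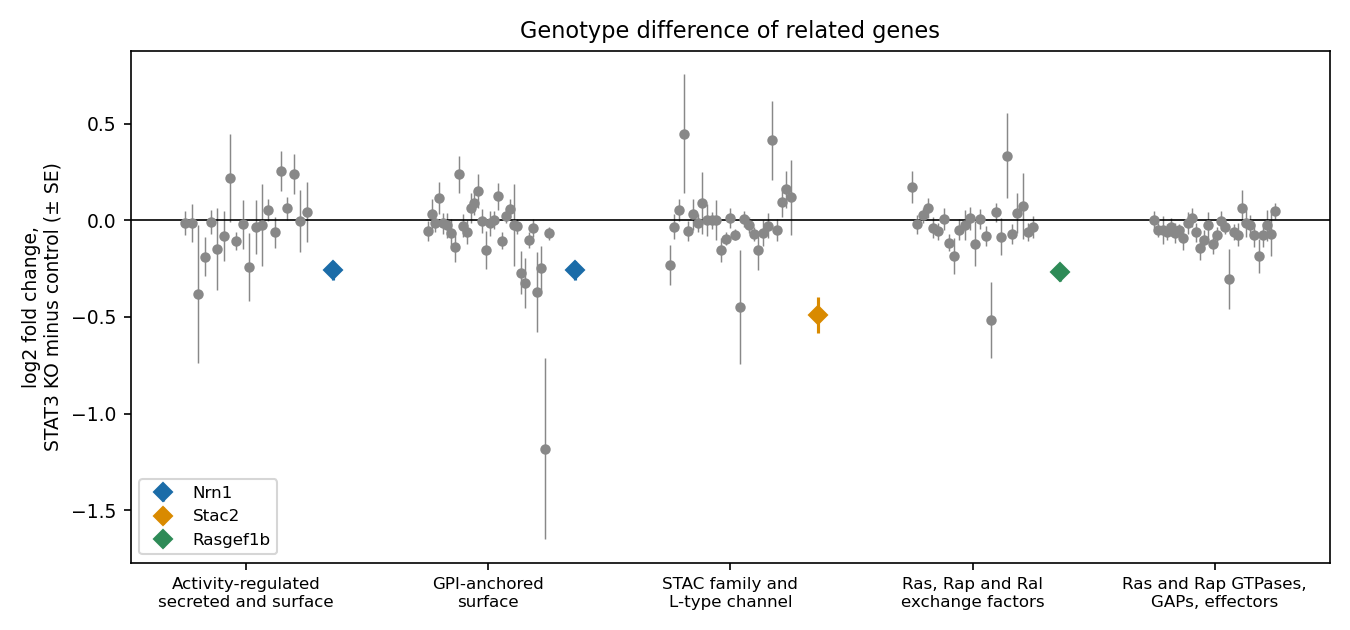
Log2 fold change between STAT3 KO and control (vertical axis, ± SE) for the genes of 5 lists of related roles (grey points, in alphabetical order within each list) and for Nrn1, Stac2 and Rasgef1b (coloured diamonds beside the lists their families belong to). Grey points lie on both sides of 0 in every list; the lowest is Rtn4rl2 at -1.18, a value that rests on control 4.

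Genes that followed each of the 3 within genotype were sought over all other genes, with the quasi-likelihood test of the slope on the log2 level of the gene and genotype in the fit. For each gene the 8 highest and the 4 lowest Pearson r over the 12 libraries are named. They are the extremes of 15452 values each and are given as a description. The central 95% of all r ran from -0.67 to 0.66 for Nrn1, from -0.69 to 0.69 for Stac2 and from -0.60 to 0.59 for Rasgef1b.

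For Nrn1 the slope test called 0 of 15452 genes, with a smallest adjusted p of 0.068 and 1363 genes at an unadjusted p of 0.05 (8.82%). DESeq2 called 41 of the 13834 genes to which it gave an adjusted p (0.296%), 9 with and 32 against Nrn1. The gene with that smallest p was Sox2, a transcription factor of neural stem cells and glia, with an r of -0.94 and a slope of -2.01 ± 0.28 (SE; log2 per log2). Sox2 was read at 45.62, 47.08, 40.34 and 49.47 CPM in controls 13, 4, 3 and 11, and at 41.83 to 63.25 CPM in KO, with a median of 51.45 CPM. Its lowest values were in control 3 and KO 8, the animals with the most Nrn1 of their genotype, and its highest were in KO 14 and KO 10, those with the least.

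Also against Nrn1 were Tpbg (r = -0.93), a surface glycoprotein gene, Cd276 (-0.92), an immune checkpoint gene, and Nudt11 (-0.91), an inositol polyphosphate phosphatase gene. With Nrn1 went Nsun4 (0.92), a methyltransferase of mitochondrial ribosomal RNA, Cog6 (0.92), a subunit of a Golgi tethering complex, Filip1l (0.89) and Qrsl1 (0.88), a subunit of the mitochondrial glutaminyl-tRNA amidotransferase. The other 4 were the membrane-curvature protein gene Pstpip2 (0.87), the mitochondrial flavoprotein gene Aifm1 (0.87), Nkiras1 (0.87) and Diexf (0.86). Nsun4 and Cog6 varied over a narrow range, at 19.45 to 23.49 CPM and 52.44 to 62.19 CPM over all animals. Without control 3 and KO 8, the animals farthest from the median of Nrn1, the r of the 8 genes ranged from 0.66 to 0.83 and those of the 4 against from -0.91 to -0.79. By DESeq2, 5 of the 12 named genes were called: Filip1l, Pstpip2, Sox2, Tpbg and Nudt11.

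For Stac2 the slope test called 0 genes, with a smallest adjusted p of 0.35 and 1922 genes at an unadjusted p of 0.05 (12.4%). DESeq2 called 144 of the 7224 genes to which it gave an adjusted p (1.99%), of which 117 went with and 27 against Stac2. The highest r belonged to Rnf31 (0.94), the catalytic subunit gene of a linear ubiquitin ligase, Csad (0.93), an enzyme of taurine synthesis, and Ndst2 (0.91), an enzyme of heparan sulphate synthesis. They were followed by the polycystin gene Pkd1 (0.90), the glycolipid enzyme gene B4galt6 (0.90), Lmx1b (0.89), a transcription factor of serotonergic neurons, the microRNA effector gene Tnrc6a (0.89) and the phosphatase gene Ubash3b (0.88). Rnf31 was lowest in KO 8 (22.52 CPM) and highest in KO 7 (30.35 CPM), the extremes of Stac2 within KO, and among controls it was highest in control 13 (28.68 CPM), as was Stac2.

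Against Stac2 were Cfap36 (r = -0.92), Praf2 (-0.91), the histone chaperone gene Nap1l4 (-0.91) and the mitochondrial ribosomal protein gene Mrpl52 (-0.91). Without KO 8 and KO 7 the r of the 8 genes lay between 0.61 and 0.87 and those of the 4 against between -0.83 and -0.74. DESeq2 called Pkd1, B4galt6, Tnrc6a, Cfap36 and Nap1l4, did not call Ubash3b and Praf2, and gave no adjusted p for the other 5 genes, Rnf31, Csad, Ndst2, Lmx1b and Mrpl52, which were therefore not judged by it.

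For Rasgef1b the slope test called 0 genes, with a smallest adjusted p of 0.964 and 660 at an unadjusted p of 0.05 (4.27%), and DESeq2 called 0. Its highest r were lower than those of the other 2 genes: Pced1a (0.85), the chromatin remodeller gene Ino80 (0.85), Lonrf1 (0.84), the mitochondrial malic enzyme gene Me3 (0.83), the peroxisomal oxidase gene Acox3 (0.83), the importin gene Ipo13 (0.83), Sec14l5 (0.82) and the ubiquitin ligase gene Ube3b (0.82). Against it were the Mediator subunit gene Med28 (r = -0.91), Mmd2 (-0.90), the adaptor complex gene Ap3m2 (-0.89) and Ino80dos (-0.88). Ino80dos is named as the opposite strand of Ino80. Whether the 2 share exon bases was not examined, and the use of strand in counting is not known. Med28 was lowest in control 13 (63.05 CPM) and KO 15 (63.13 CPM), the animals with the most Rasgef1b of their genotype. Without KO 15 and control 13 the r of the 8 lay between 0.68 and 0.86 and those of the 4 between -0.95 and -0.79.

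The genes named for 1 of the 3 had weaker values with the other two. The 8 genes with Nrn1 had r of -0.51 to -0.12 with Stac2 and of 0.08 to 0.44 with Rasgef1b. The 8 genes with Stac2 had r of 0.34 to 0.61 with Rasgef1b and of -0.60 to -0.15 with Nrn1, while the 8 genes with Rasgef1b had 0.20 to 0.72 with Stac2 and -0.03 to 0.58 with Nrn1. These values share the libraries and the genes' own correlations given above.

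**Figure D4:**
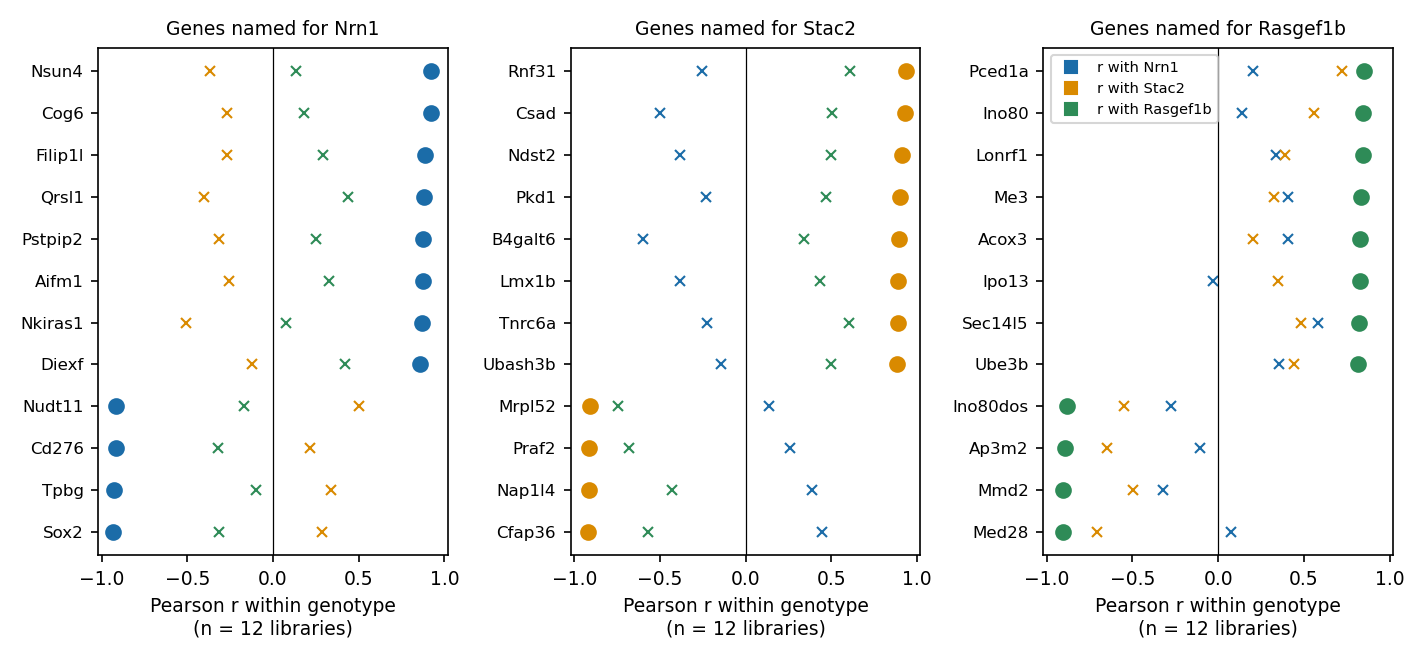
Pearson r within genotype over 12 libraries (horizontal axis) of the 12 genes named for Nrn1, Stac2 and Rasgef1b (1 panel each); large circles are the r with the gene of the panel, crosses the r with the other two, coloured by gene. The circles lie at 0.815 or more in size in every panel, and the crosses of each row lie closer to 0.

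Transcript length moved with the followers of Stac2 and Rasgef1b. Across 14892 genes, Spearman's rho between exon length and r was -0.05 for Nrn1, 0.15 for Stac2 and 0.24 for Rasgef1b. The 200 genes with the highest r to Rasgef1b had a median exon length of 5748 bases and the 200 with the lowest 2948, against 4399 over all. For Stac2 these were 6072.5 and 3105.5 bases, and for Nrn1 3998.5 and 4163. The mean log2 level of the 20% longest genes minus that of the 20% shortest, centred over all libraries, was 0.0098 to 0.0769 in controls and -0.119 to 0.0756 in KO, with 5 of 8 KO libraries below all controls. Within genotype this measure had an r of 0.50 with Rasgef1b, 0.24 with Stac2 and 0.01 with Nrn1. The share of reads not assigned to a single gene, 13.9% to 15.8% over the libraries, had an r of 0.62 with Stac2, 0.31 with Rasgef1b and 0.10 with Nrn1. The part of length and of these reads in the correlations and in the genotype differences was not tested.

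Markers of the cell types that the piece could hold were read beside the 3 genes, as the mean log2 level of each list within genotype. Fast-spiking neuron genes, a list chosen with results of these data known, had an r of 0.65 with Rasgef1b, 0.46 with Nrn1 and 0.40 with Stac2. All 12 of them had lower means in KO, 10 at an unadjusted p of 0.05 (83.3%, against 7.66% of all genes) and 0 called. Their summed level was 4179 to 6158 CPM in controls and 3939 to 4880 CPM in KO. The overlap came from control 4 (4179 CPM): the other 3 controls, at 5275 to 6158 CPM, lay above all KO animals. Without control 4 all 12 genes had an unadjusted p under 0.05. The share of all genes at this p without control 4 is not given here, so that count has no background. With this score in the fit the log2 fold changes were -0.19 for Nrn1, -0.37 for Stac2 and -0.20 for Rasgef1b. General neuronal genes had an r of 0.73 with Nrn1, 0.32 with Rasgef1b and -0.08 with Stac2. The r of single genes of this list with Nrn1 ran from -0.36 (Rbfox3) to 0.86 (Snap25). Of these 12 genes 9 were lower in KO, with a median log2 fold change of -0.04. Mean levels fell most in Snap25 (2724 to 2423 CPM), Nefl (1144 to 934.1 CPM) and Nefm (1190 to 976.6 CPM), while Syt1, Stmn2 and Uchl1 were higher. The sum of the list was 11140 to 12040 CPM in controls and 9972 to 11320 CPM in KO. Here too the overlap came from control 4 (11140 CPM), since the other 3 controls had 11500 to 12040 CPM. With the general neuronal score in the fit Nrn1 was at -0.15, Stac2 at -0.51 and Rasgef1b at -0.23. These fits use the same genotype contrast that chose the 3 genes, so their values are a description. The part of cell composition in the genotype differences was not tested.

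Nrn1 had further strong values with other lists: 0.77 with pericyte and smooth muscle genes, 0.67 with endothelial genes, 0.67 with dopaminergic genes and -0.72 with GABAergic genes. All 10 pericyte genes were lower in KO (sums of 198 to 241.1 and 158.3 to 253.1 CPM), as were 10 of 12 endothelial genes (513.7 to 618.8 and 480.5 to 636.1 CPM). Of 8 dopaminergic genes 6 were lower (1120 to 1284 and 907.1 to 1239 CPM), and of 7 GABAergic genes 2 (2103 to 2308 and 2073 to 2448 CPM). The 2 dopaminergic genes that were higher, Slc18a2 and Ddc, are also in the serotonergic list. They had the highest means of the dopaminergic list, 349 and 345.6 CPM in controls and 356.5 and 349.8 CPM in KO. Stac2 was lowest in r with oligodendrocyte genes (-0.52), of which 12 of 12 were lower in KO (14630 to 16230 and 12730 to 17040 CPM). Serotonergic genes, the markers of the cells with the deletion, had r of 0.08, 0.04 and -0.15 with Nrn1, Stac2 and Rasgef1b. Of 12 serotonergic genes 3 were lower, and their sums of 1720 to 2166 CPM in controls and 1574 to 2290 CPM in KO overlapped.

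Lists of neighbouring regions had overlapping sums in the 2 genotypes, and 0 of their genes were called. At an unadjusted p of 0.05, 7.66% of all genes passed. Ependymal genes, of the cells that line the aqueduct, had higher means in KO in 9 of 9 genes, 5 at an unadjusted p of 0.05 (1 without control 4), with sums of 30.65 to 97.02 CPM in controls and 50.14 to 130.6 CPM in KO. With their score in the fit the log2 fold changes were -0.21, -0.52 and -0.24 for Nrn1, Stac2 and Rasgef1b. Forebrain excitatory genes had lower means in 11 of 12, 6 at an unadjusted p of 0.05, with sums of 142.3 to 566.6 CPM in controls and 115.1 to 210.2 CPM in KO. This direction rested on control 4, where the sum was 566.6 CPM, the other 3 controls having 142.3 to 165.8 CPM: without it 2 of 12 were lower and the median log2 fold change was 0.24. With this score the 3 genes were at -0.26, -0.50 and -0.27.

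**Figure D5:**
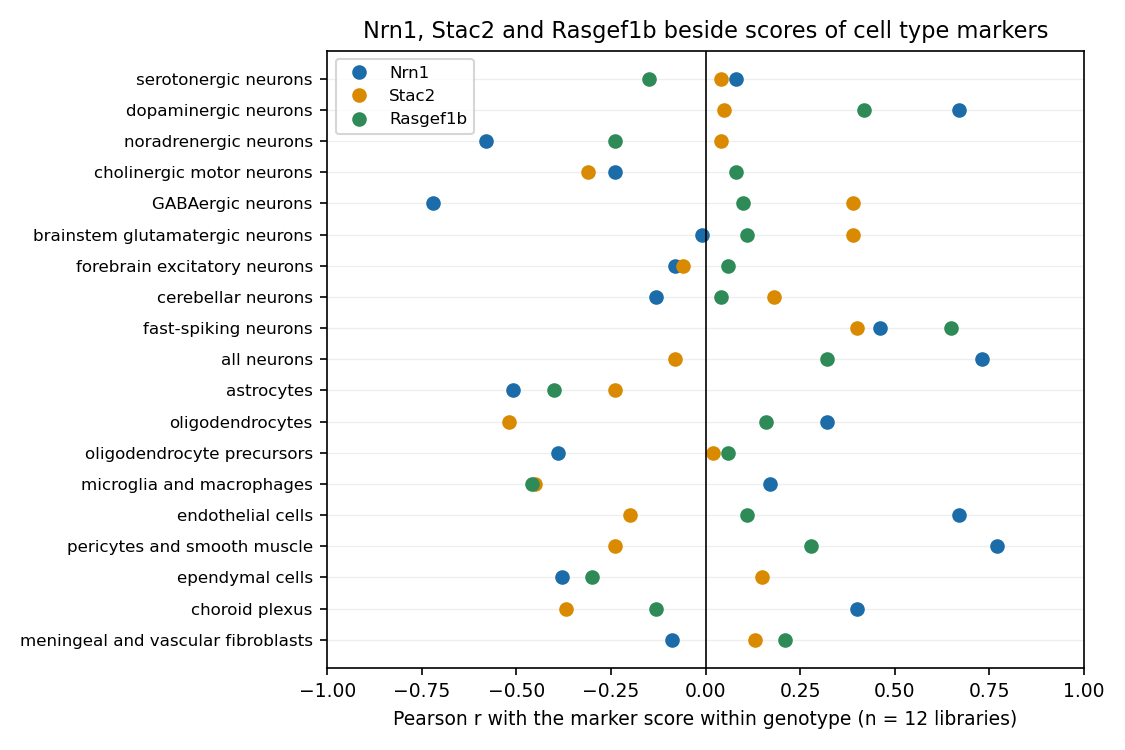
Pearson r within genotype over 12 libraries (horizontal axis) between Nrn1, Stac2 or Rasgef1b and the mean log2 level of 19 lists of cell type markers (vertical axis). Nrn1 spans the widest range, from -0.72 (GABAergic neurons) to 0.77 (pericytes and smooth muscle), and all 3 genes lie between -0.15 and 0.08 for serotonergic neurons.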

How the data were processed

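The authors extracted total RNA from dissected DR tissue and made mRNA sequencing libraries (NEBNext Ultra II kit), and the submitters' processing notes name STAR 2.5.0b, DESeq2 1.6.3 and the mm10 assembly. The files as deposited list, for every animal, unnormalised read counts by gene symbol. The read counter, its annotation and its strand setting are not given in the sources used here. Each file has 2 lines for reads assigned to no single gene (13.9% to 15.8% of reads), which were left out of library sizes and tests. Genotype and sex came from the labels, replicate numbers from the titles. Over 66 pairs of libraries, differences over the 13400 genes that averaged 50 counts or more were 5.24 to 29.1 times counting noise, so no library was counted as a copy.

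Genes were filtered with filterByExpr by genotype (minimum 10 counts, 15 in total), scaled with TMM and tested with the two-sided quasi-likelihood test of edgeR 4.0.16 in R 4.3.3 (limma 3.58.1), with Benjamini-Hochberg adjustment over all genes and a threshold of 0.05. SE is the log2 fold change divided by the root of the F statistic. Shares of genes called by DESeq2 are over the genes to which it gave an adjusted p. Correlations used log2 CPM with a prior count of 2, centred within genotype, with 100000 permutations within genotype. The scripts were tested on simulated data. Named genes were, for each of the 3 genes, the 8 highest and 4 lowest r, the 3 lowest p of each family list, the family members, Stat3, Tph2 and Slc6a4, the 5 widest gaps, and the genes on either side of the limit. A gene that the rule names is not reported here. Fars2, Bdnf, Cacna1c, Cacna1d, Rap2a and the single genes of the general neuronal and dopaminergic lists were added after their values were seen. The 3 genes and all lists were chosen with earlier results of these data known. Exon lengths and positions are from GENCODE on GRCm38, the promoter from RefSeq. Nrn1 and Stac2 had no entry in the promoter table. Alternatives were RLE scaling, library size only, DESeq2 1.42.0, no filter, sex as a covariate, a prior count of 0.5, leaving out each library and, chosen after seeing the data, marker scores as covariates and the marker lists without control 4. Figures used Python 3.11.15 with matplotlib 3.10.9. The floor of 3 counts covers counting error only.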

Additional observations from a re-analysis of the deposited data

Results flagged for a closer look

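Among 24 groups of animals examined for the genes of interest, their families and the label checks, 3 held an animal far from the others, where chance gives about 1.2 (about 1 in 20 groups). Nrn1 was 131.2 CPM in control 3, while the other 3 controls had 115.4 to 117.3 CPM, so the gap took a share of 0.874 of the whole range. Rasgef1a was 123.2 CPM in control 4, with 93.88 to 98.79 CPM for the other 3 controls (share 0.833). Slc6a4 was 404.6 CPM in KO 5, with 150.6 to 236.6 CPM for the other 7 KO animals (share 0.661).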

How the results depend on the processing

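Over 22 alternative settings, 368 values stayed on their side of the threshold or within the spread between animals (counts within 1.5 times), and 22 moved. Among values that passed no test, leaving out 1 library turned the sign of the r of Nrn1 and Stac2 (0.13 without KO 8), of the sex difference of Nrn1 (-0.0080 without KO 8) and of the interaction of Stac2 (-0.11 without control 13). With library size only, 20 genes in place of 37 showed no overlap with lower KO levels. Leaving out each library gave 44 to 296 such genes, 296 without control 4 and 104 without KO 8; without any one of controls 13, 3 and 11 or of KO 16, 15 and 7 the count was 58 to 80, since fewer animals leave fewer values to overlap. DESeq2 called 6 genes between genotypes, 24 between sexes in place of 13 and 2 for the interaction of genotype and sex, and 41 and 144 genes that followed Nrn1 and Stac2, in place of 0 each. Leaving out each library gave 0 to 1 genes between genotypes (1 without control 4), 0 to 37 for the interaction (37 without control 11) and 0 to 2 that followed Nrn1 (2 without KO 5); the cause was not tested. Without the filter 2 genes followed Rasgef1b. With marker scores in the fit the log2 fold change was -0.20 for Rasgef1b (fast-spiking score) and -0.15 for Nrn1 (general neuronal score). No paired analysis was possible because the replicate numbers in the titles are not shared between the genotypes. With 4 controls, a single control decides each gap between the genotypes.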

Other observations

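The remaining marker lists are given as values. In the order Nrn1, Stac2 and Rasgef1b, the r within genotype was 0.40, -0.37 and -0.13 for choroid plexus genes, -0.51, -0.24 and -0.40 for astrocyte genes, 0.17, -0.45 and -0.46 for microglia and macrophage genes, and -0.58, 0.04 and -0.24 for noradrenergic genes. Choroid plexus genes were higher in KO in 9 of 9, with sums of 41.66 to 55.68 CPM in controls and 45.64 to 275 CPM in KO. Astrocyte genes were lower in 4 of 12, microglia and macrophage genes in 7 of 12 and noradrenergic genes in 1 of 4 tested. Without control 4, microglia and macrophage genes were lower in 4 of 12 and noradrenergic genes in 2 of 4.

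Cholinergic motor neuron genes had r of -0.24, -0.31 and 0.08, brainstem glutamatergic genes -0.01, 0.39 and 0.11, forebrain excitatory genes -0.08, -0.06 and 0.06, and cerebellar genes -0.13, 0.18 and 0.04. Of these, 1 of 7, 3 of 7, 11 of 12 and 1 of 10 were lower in KO. Without control 4 the counts were 2 of 7, 5 of 7, 2 of 12 and 1 of 10, so the direction of the brainstem glutamatergic and forebrain excitatory lists turned with that animal. Ependymal genes had r of -0.38, 0.15 and -0.30, oligodendrocyte precursor genes -0.39, 0.02 and 0.06 (3 of 8 lower) and fibroblast genes -0.09, 0.13 and 0.21 (5 of 10 lower, 3 of 10 without control 4). No gene of any marker list was called between genotypes by the quasi-likelihood test.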
